A study of Homo sapiens with 6 samples.

Results

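The 38 genes described here encode the machinery that carries a cell into and through mitosis: kinases and cyclins, the spindle assembly checkpoint, kinetochore proteins, kinesin motors, spindle proteins and cytokinesis factors. They were chosen by name and by role out of 58440 gene identifiers in the deposited table, and all 38 were found there. Of these, 37 were among the 18380 genes that passed the filter on low counts, and UBE2C did not. The series compares 3 libraries of K562 cells over-expressing IRAIN with 3 libraries that the labels call wild type and the column names call vector, here called controls. K562 is an established chronic myeloid leukaemia line with the BCR-ABL1 fusion, and the labels name no drug or other agent in either group. IRAIN is a noncoding RNA read from the strand opposite to IGF1R. The labels give neither the vector or promoter that drives IRAIN nor whether the cells are 1 clone or a pool, and they do not say that the libraries of a group are separate cultures, so p-values measure only the spread between these libraries, which may be technical. The series design text names drug resistance as the reason for the comparison.

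Entry into mitosis is driven by CDK1 bound to cyclin A or cyclin B, with Polo-like and Aurora kinases acting beside it. The checkpoint kinases and adaptors hold back the anaphase-promoting complex, through CDC20, until every kinetochore has captured microtubules, after which securin and cyclin B are destroyed and separase opens cohesin. Most of these genes are transcribed in G2 and mitosis, under control of the MuvB complexes with MYBL2 and FOXM1, which act at an element called CHR, and of NF-Y, which binds the CCAAT box. In a bulk culture such as this one, a lower value can mean fewer cells in G2 and mitosis or less RNA in each such cell, and these cannot be told apart.

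Many of the genes share promoter elements. RefSeq promoter windows (GRCh38.p14, 250 bases before to 50 bases after the transcript start) matched 33 of the 38 genes. The CHR element, searched as TTTGAA on both strands, was found in 23 of these 33 windows (69.7%), against 15.4% of all 27305 promoters of the same length and 10.1% of the 10506 windows of tested genes. The CCAAT box, searched as CCAAT on both strands, was found in 25 of 33 windows (75.8%), against 35.7% of all promoters, and 18 of 33 (54.5%) held both, against 6.08%. Of 17 windows of G1/S genes, which act at the start of replication, 13 held a CCAAT box (76.5%) and none held TTTGAA. Among the other mitosis genes, from 10 further lists of mitotic regulators and partner proteins, 49 of 139 windows held TTTGAA (35.3%).

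The 6 windows below belong to the genes with the largest falls (BUB1, CCNB1, KIF14) and the largest rises (CENPE, NDC80, MKI67), and are shown because genes of this shared programme moved in opposite directions. Each is written 5′ to 3′ on the gene's strand, with matches to the CHR element or the CCAAT box, on either strand, in capitals. Their positions are chr2:110678014-110678313 (minus strand) for BUB1, chr5:69166900-69167199 (plus) for CCNB1, chr1:200620702-200621001 (minus) for KIF14, chr4:103198294-103198593 (minus) for CENPE, chr18:2571307-2571606 (plus) for NDC80 and chr10:128126374-128126673 (minus) for MKI67.
BUB1: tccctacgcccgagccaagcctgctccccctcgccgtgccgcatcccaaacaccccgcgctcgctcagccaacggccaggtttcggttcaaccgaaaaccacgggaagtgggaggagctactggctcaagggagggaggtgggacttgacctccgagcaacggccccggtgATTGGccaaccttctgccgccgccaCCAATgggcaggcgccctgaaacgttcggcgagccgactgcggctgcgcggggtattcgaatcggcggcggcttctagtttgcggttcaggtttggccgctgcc
CCNB1: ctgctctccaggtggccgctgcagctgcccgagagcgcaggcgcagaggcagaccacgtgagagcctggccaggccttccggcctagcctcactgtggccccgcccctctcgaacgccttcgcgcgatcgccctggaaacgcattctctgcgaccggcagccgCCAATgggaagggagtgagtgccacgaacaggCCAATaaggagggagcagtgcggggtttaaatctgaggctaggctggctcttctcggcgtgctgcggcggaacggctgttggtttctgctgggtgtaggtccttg
KIF14: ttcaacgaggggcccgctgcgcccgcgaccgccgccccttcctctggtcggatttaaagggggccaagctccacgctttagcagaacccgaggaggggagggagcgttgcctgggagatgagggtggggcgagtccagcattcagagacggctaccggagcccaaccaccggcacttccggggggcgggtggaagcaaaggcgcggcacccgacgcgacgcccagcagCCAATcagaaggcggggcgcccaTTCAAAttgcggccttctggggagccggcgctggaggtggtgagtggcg
CENPE: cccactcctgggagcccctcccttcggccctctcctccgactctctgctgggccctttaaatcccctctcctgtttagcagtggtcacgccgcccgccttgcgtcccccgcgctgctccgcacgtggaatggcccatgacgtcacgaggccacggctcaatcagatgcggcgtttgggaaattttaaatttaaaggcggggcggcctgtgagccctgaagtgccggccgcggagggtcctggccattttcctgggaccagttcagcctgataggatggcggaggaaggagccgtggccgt
NDC80: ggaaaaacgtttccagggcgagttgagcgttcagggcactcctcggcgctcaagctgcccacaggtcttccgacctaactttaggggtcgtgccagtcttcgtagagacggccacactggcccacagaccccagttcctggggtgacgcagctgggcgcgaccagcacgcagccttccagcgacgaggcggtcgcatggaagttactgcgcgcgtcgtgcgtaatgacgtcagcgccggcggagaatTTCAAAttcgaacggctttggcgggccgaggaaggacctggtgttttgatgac
MKI67: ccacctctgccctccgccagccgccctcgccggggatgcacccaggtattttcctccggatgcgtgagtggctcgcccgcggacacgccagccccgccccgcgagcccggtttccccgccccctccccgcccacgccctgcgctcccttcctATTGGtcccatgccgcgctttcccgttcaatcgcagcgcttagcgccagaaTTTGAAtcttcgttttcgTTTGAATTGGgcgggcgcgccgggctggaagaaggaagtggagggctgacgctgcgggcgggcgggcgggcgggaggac
BUB1 and CCNB1 each held 2 CCAAT boxes and no TTTGAA. CENPE held neither motif, NDC80 held 1 CHR element only, KIF14 held 1 of each, and MKI67 held 2 of each, with a CHR element and a CCAAT box that overlap. TTTGAA was found in 4 of 7 windows of genes that were lower, 3 of 4 of genes that were higher and 16 of 22 of genes that did not pass the test. The CCAAT box was found in 7 of 7, 2 of 4 and 16 of 22 of these windows. The differences between these small sets were not tested. A match is a description of the letters and does not show that a factor binds there. Only TTTGAA was searched for, so its absence does not show that a promoter lacks a CHR element.

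**Figure D1:**
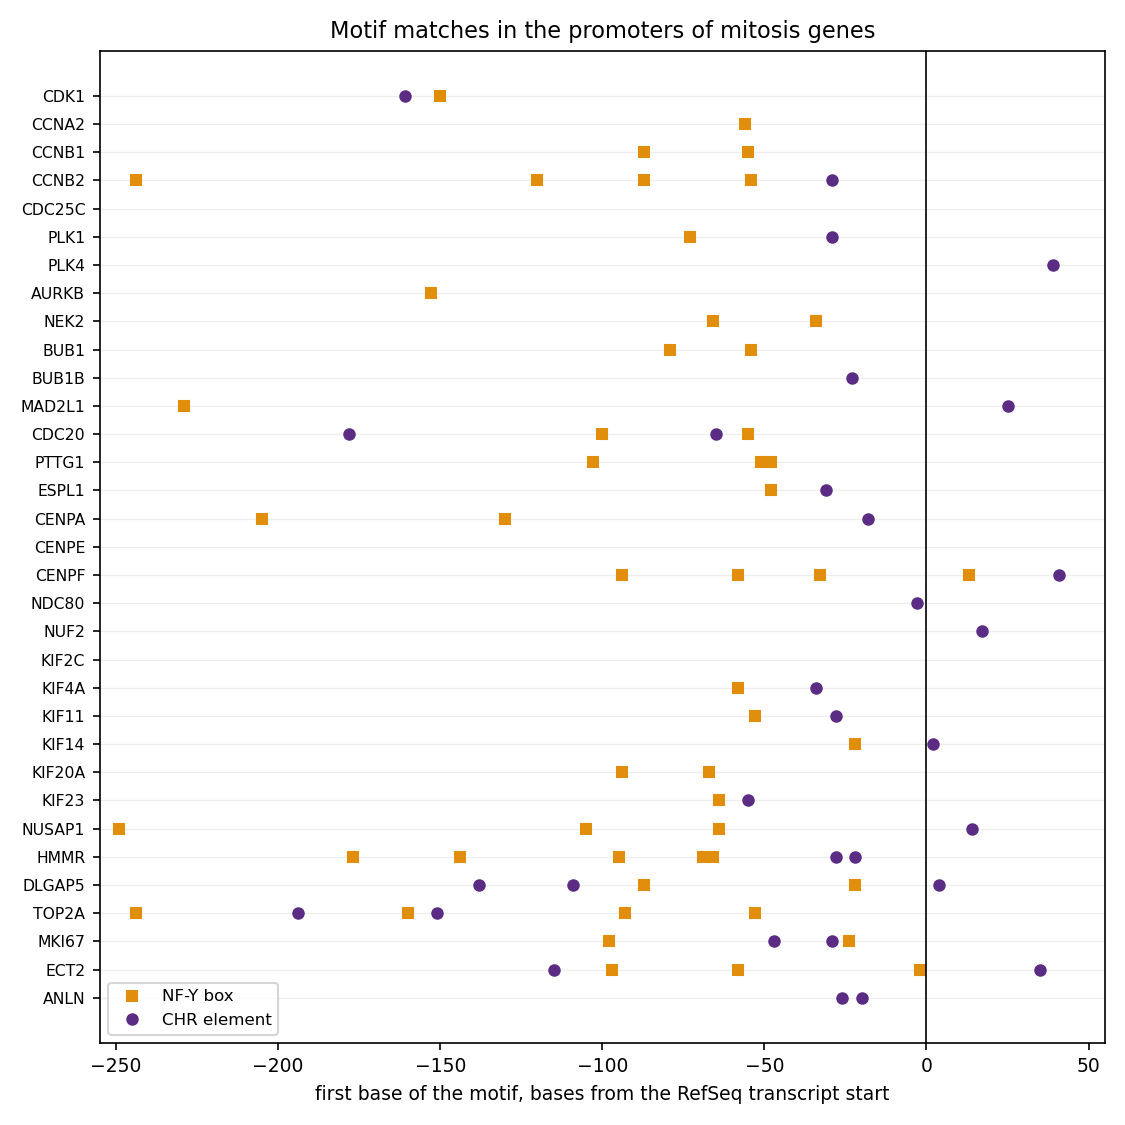
First base of each match to the CHR element (circles) and to the CCAAT box, labelled NF-Y box (squares), in bases from the RefSeq transcript start, for the 33 mitosis genes with a promoter window. TTTGAA matches appear in 23 rows and CCAAT matches in 25, and the row of CENPE holds neither.

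The libraries held 11558983 to 13303139 counts in genes with over-expression and 11893872 to 12237415 in the controls, and counts of IRAIN itself were 97, 94 and 106 with over-expression against 0, 0 and 1 for controls. Of 10 markers of K562, among them GATA1, TAL1 and KLF1, all exceeded 1 CPM (library counts scaled to a common total with TMM factors) in at least 1 library. Their summed level was 1458, 1416 and 1421 CPM with over-expression and 1586, 1598 and 1563 CPM in the controls, lower in each over-expression library, and its part in the results was not tested. Of 20 markers of lymphoid, monocyte, epithelial, fibroblast and endothelial cells, 11 stayed under 1 CPM in every library and 4 of these (MS4A1, CDH5, VWF, KDR) had no count at all. The summed level of the 20 was 622 to 656 CPM with over-expression and 565 to 579 CPM in the controls, most of it from KRT8, KRT18, EPCAM and COL1A2, and its part in the results was not tested. The mitochondrial share of counts was 2.95% to 3.33% with over-expression and 2.46% to 2.78% in the controls, and the share of the nuclear RNA MALAT1 was 2.57% to 2.62% with over-expression and 1.94% to 1.99% in the controls. The part of these shares in the results was not tested either.

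The mitosis genes were abundant, and whether their total separated the groups depended on the scaling. With TMM scaling their summed level was 5969, 6059 and 6053 CPM with over-expression, against 6032, 5961 and 5996 CPM for controls. The ranges overlap, and the means were 6027 ± 50.2 and 5996 ± 35.7 CPM (SD, n = 3 each). With plain library totals the sums were 5897, 5964 and 6005 CPM with over-expression, against 6100, 6033 and 6072 CPM for controls, so that all over-expression libraries lay below all controls. Per kilobase of exon, the level of the 37 tested genes spanned 10.5 to 118 in over-expression libraries and 10.1 to 115 in the controls (mean CPM per kb). TOP2A, the topoisomerase that untangles chromosomes, stood highest at 118 CPM per kb with over-expression and 115 CPM per kb in the controls. It was followed by TPX2, which activates Aurora A on the spindle, at 118 and 112 CPM per kb. CCNB1, the B-type cyclin, had 60.5 CPM per kb with over-expression, below CDC20 (61.5) and NUSAP1 (67.6), and 75 CPM per kb in the controls, above both (65.2 and 64.7). CDC25C, the phosphatase that activates CDK1, stood lowest of the tested genes at 10.5 and 10.1 CPM per kb.

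**Figure D2:**
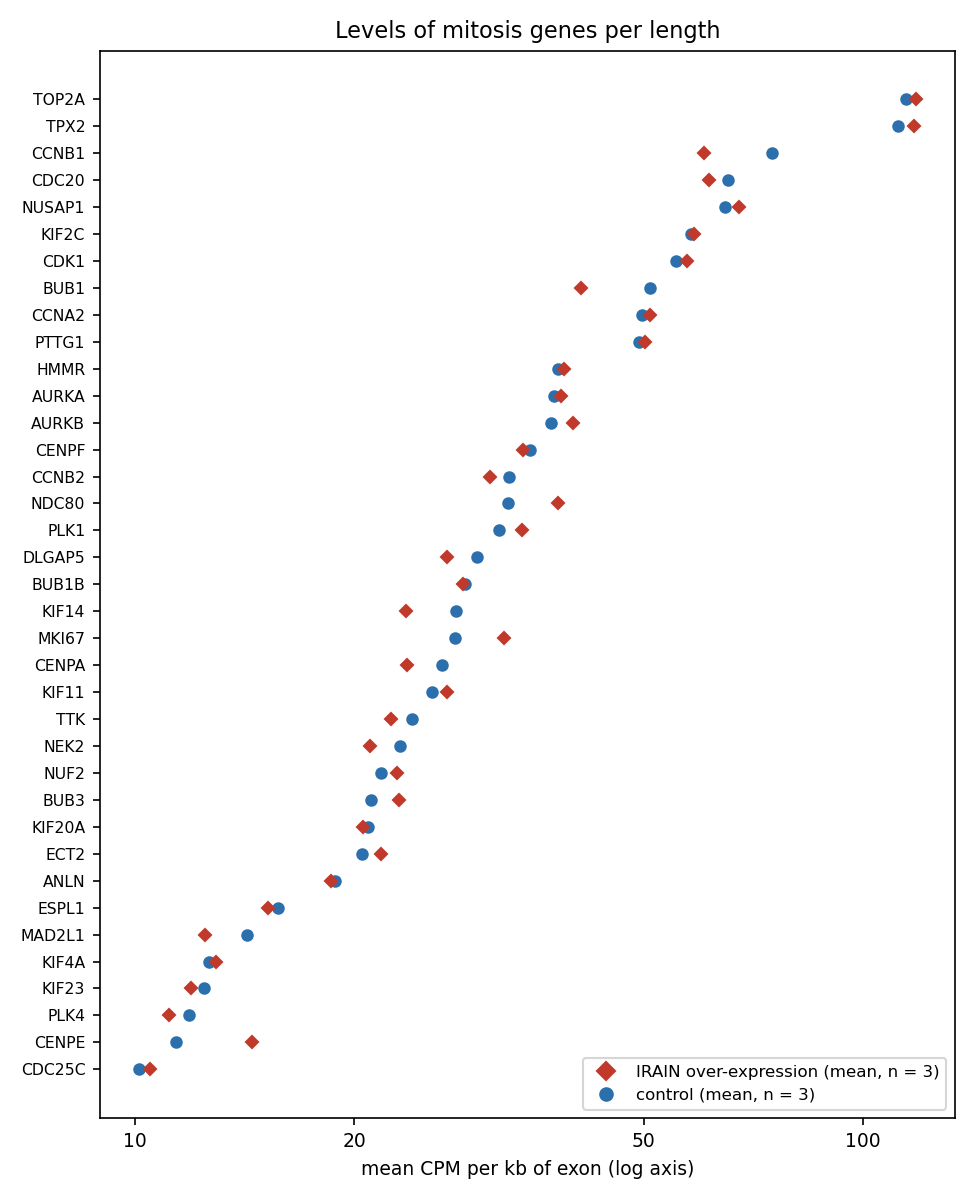
Mean CPM per kb of exon (log axis) of the 37 tested mitosis genes, with IRAIN over-expression as diamonds and control as circles, ordered by the control level. TOP2A and TPX2 stand apart at the top, and CCNB1 shows one of the widest gaps, at 60.5 with over-expression against 75 in the controls.

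Of the 37 tested genes, 6 were higher and 7 lower with over-expression (edgeR quasi-likelihood test, adjusted p under 0.05 over all genes tested). Called genes made up 35.1% of them, against 39.3% of all genes tested (20.3% higher and 18.9% lower). Among the 6373 genes at least as abundant as CDC25C, the least abundant tested member, 58.8% were called (27.9% higher and 30.9% lower). The share of the mitosis genes was thus close to that of all genes but well below that of genes of at least that abundance. These differences in share were not tested. All differences were small: the largest was 1.27-fold, and 28 of the 37 genes differed by less than 1.1-fold. The median size of the log2 fold change was 0.07 for the mitosis genes, 0.14 for the genes of at least that abundance and 0.20 for all genes tested. The median signed log2 fold change was 0.02, against -0.001 over all genes tested. Over-expression and control libraries were fully separated in CPM for 18 of the 37 genes (48.6%), against 47.5% of all genes tested. With scaling to plain library totals the split was 4 higher and 11 lower, and after a correction for GC content and length it was 10 and 10. Without the control library numbered 2 it was 3 and 6. The number of all genes called was 7344 with plain library totals, against 7217 with TMM. Shares among genes at least as abundant as CDC25C were not computed under these other settings. The comparison of shares above therefore covers only all 6 libraries with TMM scaling and no such correction.

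**Figure D3:**
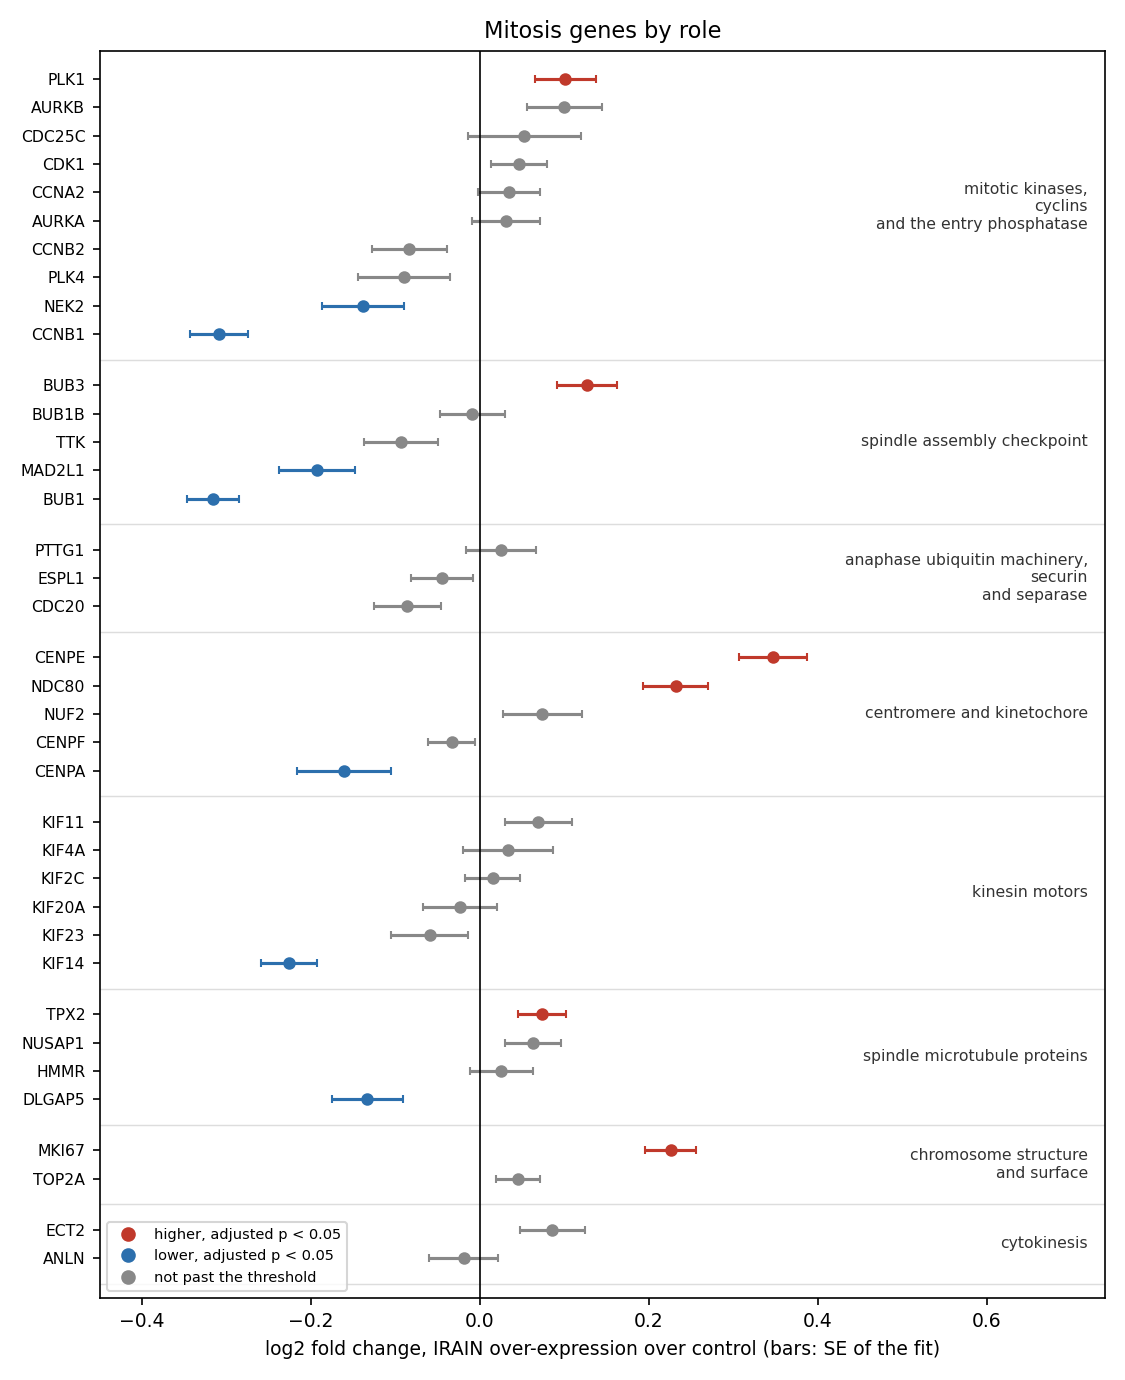
Log2 fold change of IRAIN over-expression over control for the 37 tested mitosis genes, grouped by role, with the SE of the edgeR fit as bars. Points left of 0 are lower with over-expression, and the called genes run from BUB1 at -0.32 to CENPE at 0.35.

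Among the kinases, cyclins and the entry phosphatase, 1 of 10 was higher and 2 were lower. CCNB1 (ENSG00000134057.14, GRCh38 chromosome 5, 69167010 to 69178245, plus strand), the cyclin that binds CDK1 for entry into mitosis, had 154, 155 and 156 CPM in the over-expression libraries and 185, 193 and 198 CPM in the controls. All over-expression libraries lie below all controls, and CCNB1 fell by 0.31 ± 0.035 on the log2 scale (SE; edgeR adjusted p = 2.9e-11). Its relative CCNB2 had 85.8, 83.7 and 89 CPM with over-expression and 86.8, 96.2 and 91 CPM in the controls. These ranges overlap, and CCNB2 was not called (-0.08 ± 0.044 on the log2 scale, SE; edgeR adjusted p = 0.13), although it was with plain library totals (0.029). CDK1 itself, the kinase these cyclins activate, had 229, 215 and 232 CPM with over-expression and 224, 217 and 213 CPM in the controls. Its groups overlap as well, at 0.05 ± 0.033 on the log2 scale (SE; edgeR adjusted p = 0.28), and CDK1 was called after the GC and length correction (0.031). The S and G2 cyclin CCNA2 had 141, 144 and 142 CPM with over-expression and 145, 136 and 136 CPM in the controls, which overlap (edgeR adjusted p = 0.5).

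NEK2, a kinase that helps centrosomes separate, had 62.4, 67.9 and 64.8 CPM with over-expression and 72, 74 and 68.9 CPM in the controls. It fell by 0.14 ± 0.049 on the log2 scale (SE; edgeR adjusted p = 0.019), and the call was lost without over-expression replicate 1 (adjusted p = 0.11), without the control numbered 2 (0.11) and with DESeq2 (0.085). PLK1, the Polo-like kinase of entry, spindle formation and exit, had 161, 169 and 155 CPM with over-expression and 150, 149 and 153 CPM in the controls. It rose by 0.10 ± 0.036 on the log2 scale (SE; edgeR adjusted p = 0.021). Its call was kept in 8 of 14 alternatives and was lost without over-expression replicate 2 (adjusted p = 0.2), without the control numbered 1 (0.065) or 2 (0.08), with plain library totals (0.14), after the GC and length correction (0.12) and with DESeq2 (0.099). The remaining kinases were not called: AURKA, the spindle pole kinase, at 0.03 ± 0.04, AURKB, the kinase that corrects faulty attachments, at 0.10 ± 0.045, and PLK4, the kinase of centriole duplication, at -0.09 ± 0.055 on the log2 scale (SE). CDC25C had a log2 fold change of 0.05 ± 0.067 (SE). AURKB passed the test without over-expression replicate 3 (adjusted p = 0.047) and without the control numbered 3 (0.027).

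The spindle assembly checkpoint held the largest fall. BUB1 (ENSG00000169679.14, GRCh38 chromosome 2, 110637698 to 110678114, minus strand), the kinase that recruits checkpoint proteins to kinetochores, had 246, 244 and 251 CPM in the over-expression libraries and 313, 299 and 312 CPM in the controls. The groups are well apart, and BUB1 fell by 0.32 ± 0.031 on the log2 scale (SE; edgeR adjusted p = 1.9e-13). MAD2L1 (ENSG00000164109.13, GRCh38 chromosome 4, 120055608 to 120067074, minus strand), which binds and holds CDC20, had 70.5, 72.2 and 72.4 CPM with over-expression and 81.9, 82.5 and 81.7 CPM in the controls. It fell by 0.19 ± 0.045 on the log2 scale without overlap (SE; edgeR adjusted p = 0.00037). BUB3, the adaptor that carries BUB1 and BUB1B to kinetochores, went the other way, with 182, 193 and 198 CPM with over-expression and 181, 168 and 177 CPM in the controls. The closest libraries differ by about 1 CPM, and BUB3 rose by 0.13 ± 0.035 on the log2 scale (SE; edgeR adjusted p = 0.0026), a call lost without the control numbered 2 (adjusted p = 0.059). BUB1B, the checkpoint protein BubR1, had 127, 130 and 122 CPM with over-expression and 132, 125 and 125 CPM in the controls. It did not pass the test, nor did TTK, the kinase at the top of the checkpoint, at log2 fold changes of -0.01 ± 0.038 and -0.09 ± 0.044 (SE; edgeR adjusted p = 0.88 and 0.082). TTK was called with plain library totals (adjusted p = 0.014), without over-expression replicate 3 (0.02) and without the control numbered 2 (0.036).

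Of the anaphase genes, none of 3 tested was called by edgeR (1 of 3 at an unadjusted p under 0.05), by DESeq2 or by limma-voom. CDC20, the activator of the anaphase-promoting complex, had 130, 123 and 124 CPM with over-expression and 124, 138 and 136 CPM in the controls (-0.09 ± 0.04 on the log2 scale, edgeR adjusted p = 0.079). It was called with plain library totals (adjusted p = 0.011), after the GC and length correction (0.00449) and without the control numbered 1 (0.011). PTTG1, which encodes securin, stood at 0.02 ± 0.042 and ESPL1, which encodes separase, at -0.05 ± 0.036 on the log2 scale (SE), and ESPL1 was called after the GC and length correction at -0.11 (adjusted p = 0.00718).

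UBE2C, the ubiquitin-conjugating enzyme that works with the anaphase-promoting complex, had 7, 13 and 6 counts in the over-expression libraries and 3, 7 and 4 counts in the controls. These 26 and 14 counts set it apart from every other member, none of which was below 32.2 CPM in any library, and no fold is given. The annotation lists 4 processed pseudogenes of UBE2C, of which UBE2CP1 had 66 counts with over-expression and 68 in the controls, UBE2CP2 had 20 and 19, and the other two had none. In the single library with strand counts, UBE2C had 6 reads in the orientation that most genes rarely show and 7 in the usual one. The part of these copies in its low count was not tested, and the count is not read as its level.

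The centromere and kinetochore genes held the largest rise, with 2 of 5 higher and 1 lower. CENPE (ENSG00000138778.11, GRCh38 chromosome 4, 103105806 to 103198409, minus strand), the kinesin that moves chromosomes to the spindle equator, had 133, 145 and 132 CPM in the over-expression libraries and 113, 106 and 104 CPM in the controls. The groups do not overlap, and CENPE rose by 0.35 ± 0.04 on the log2 scale (SE; edgeR adjusted p = 1.1e-10). NDC80 (ENSG00000080986.12, GRCh38 chromosome 18, 2571511 to 2616635, plus strand), the microtubule-binding subunit of the outer kinetochore, had 135, 135 and 142 CPM with over-expression and 113, 116 and 121 CPM in the controls. It rose by 0.23 ± 0.039 on the log2 scale (SE; edgeR adjusted p = 1e-06), again without overlap. NUF2, which pairs with NDC80, had 76.8, 76.4 and 77.8 CPM with over-expression and 77.6, 72.8 and 69.1 CPM in the controls, and was not called (0.07 ± 0.047 on the log2 scale, edgeR adjusted p = 0.22). The other two subunits of that complex, named after their values were seen, went opposite ways: SPC25 rose by 0.22 ± 0.048 and SPC24 fell by 0.21 ± 0.042 on the log2 scale (SE; edgeR adjusted p = 0.00019 and 4.8e-05).

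CENPA, the histone variant that marks the centromere, had 48.2, 45.4 and 46.8 CPM with over-expression and 53.6, 50.5 and 52.7 CPM in the controls. It fell by 0.16 ± 0.056 on the log2 scale (SE; edgeR adjusted p = 0.016), and the call was lost without over-expression replicate 2 (adjusted p = 0.082), without the control numbered 1 (0.07) or 3 (0.052) and with DESeq2 (0.076). CENPF, a large protein of the outer kinetochore, had 400, 401 and 395 CPM with over-expression and 407, 410 and 407 CPM in the controls. Its groups do not overlap although they differ by a few percent, and it was not called (-0.03 ± 0.028 on the log2 scale, edgeR adjusted p = 0.36). It was called at -0.07 with plain library totals (adjusted p = 0.044) and at -0.07 after the GC and length correction (0.034).

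**Figure D4:**
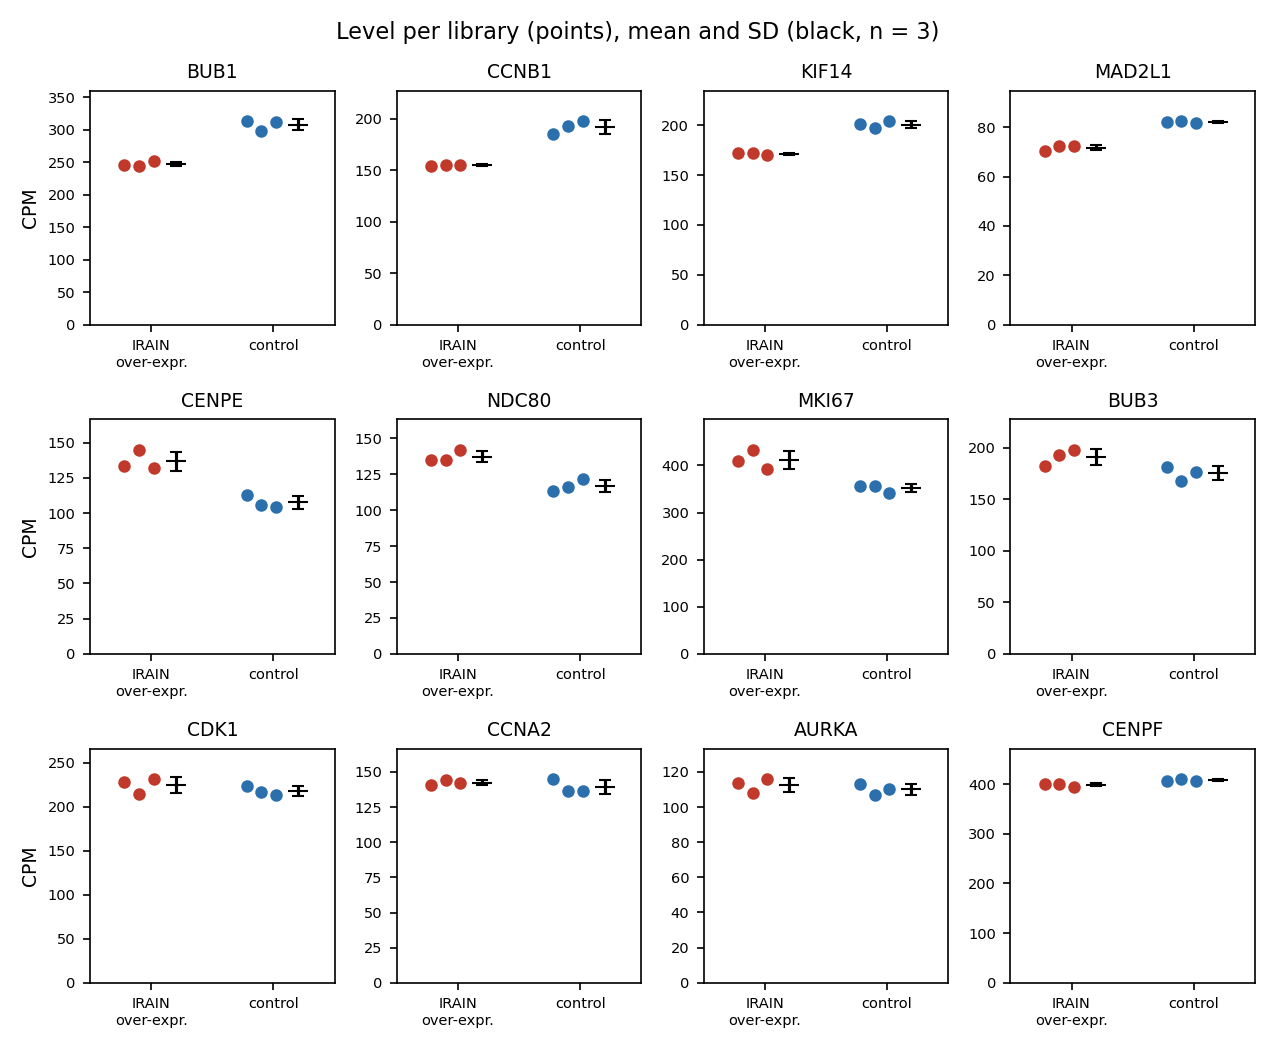
CPM of 12 mitosis genes in each library (points), with IRAIN over-expression left of control and the mean and SD of 3 libraries in black, each axis starting at 0. BUB1, CCNB1, KIF14 and MAD2L1 are lower and CENPE, NDC80 and MKI67 higher with over-expression, without overlap, whereas CDK1, CCNA2 and AURKA overlap.

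Of the 6 genes grouped as kinesin motors, 1 was lower and none was higher by edgeR (0 higher at an unadjusted p under 0.05). DESeq2 and limma-voom each called 1 of them. CENPE, also a kinesin, was higher and is counted with the kinetochore genes instead. KIF14 (ENSG00000118193.11, GRCh38 chromosome 1, 200551497 to 200620734, minus strand), a motor of the midbody and cytokinesis, had 172, 172 and 170 CPM in the over-expression libraries and 201, 197 and 204 CPM in the controls. The groups are far apart relative to their spread, and KIF14 fell by 0.23 ± 0.033 on the log2 scale (SE; edgeR adjusted p = 6.3e-08). KIF11, the motor that pushes the spindle poles apart, had 129, 129 and 133 CPM with over-expression and 127, 116 and 130 CPM in the controls. These overlap (log2 fold change 0.07 ± 0.04, edgeR adjusted p = 0.17), though KIF11 was called after the GC and length correction at 0.10 (adjusted p = 0.023). KIF2C, which takes microtubules apart, KIF4A, a chromosome-bound motor, KIF20A and KIF23, motors of the central spindle, had log2 fold changes of 0.02 ± 0.032, 0.03 ± 0.054, -0.02 ± 0.044 and -0.06 ± 0.046 (SE), and none of the 4 was called in any alternative.

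Of 4 spindle microtubule proteins, 1 was higher and 1 lower. DLGAP5, which stabilises microtubules near the chromosomes, had 93.2, 101 and 101 CPM with over-expression and 106, 112 and 106 CPM in the controls. It fell by 0.13 ± 0.042 on the log2 scale (SE; edgeR adjusted p = 0.008), a call lost without over-expression replicate 1 (adjusted p = 0.091) and without the control numbered 2 (0.083). TPX2 had 408, 430 and 433 CPM with over-expression and 405, 401 and 403 CPM in the controls, and rose by 0.07 ± 0.028 on the log2 scale (SE; edgeR adjusted p = 0.033). That call was kept in 5 of 14 alternatives and was lost without over-expression replicate 2 (adjusted p = 0.13) or 3 (0.096) and without any of the controls numbered 1 to 3 (0.065, 0.11 and 0.087). It was also lost with plain library totals (0.29), without a filter (0.062), with the replicate block (0.051) and with DESeq2 (0.1). NUSAP1 and HMMR, which bind spindle microtubules, had log2 fold changes of 0.06 ± 0.033 and 0.03 ± 0.037 (SE) and were not called, and NUSAP1 passed after the GC and length correction (adjusted p = 0.038).

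MKI67 (ENSG00000148773.13, GRCh38 chromosome 10, 128096659 to 128126385, minus strand), the proliferation marker Ki-67 that coats mitotic chromosomes, had 409, 433 and 393 CPM in the over-expression libraries and 357, 357 and 342 CPM in the controls. All over-expression libraries exceed all controls, and MKI67 rose by 0.23 ± 0.03 on the log2 scale (SE; edgeR adjusted p = 6.2e-09). TOP2A had 756, 760 and 767 CPM with over-expression and 750, 730 and 732 CPM in the controls. The groups do not overlap, but TOP2A was not called (0.05 ± 0.026 on the log2 scale, edgeR adjusted p = 0.17), and it was called by limma-voom (adjusted p = 0.047) and after the GC and length correction (0.018). The cytokinesis genes were not called by edgeR (1 of 2 at an unadjusted p under 0.05), by DESeq2 or by limma-voom: ECT2, which activates RhoA at the division plane, had a log2 fold change of 0.09 ± 0.039, and ANLN, the scaffold of the contractile ring, of -0.02 ± 0.041 (SE). ECT2 was called after the GC and length correction at 0.12 (adjusted p = 0.00839).

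BUB1, CCNB1, KIF14 and MAD2L1 stayed lower and CENPE, NDC80 and MKI67 stayed higher, past the threshold, in all 14 alternatives, whose log2 fold changes ran from -0.35 to -0.30 for BUB1, -0.34 to -0.29 for CCNB1 and 0.30 to 0.38 for CENPE. Of these genes MAD2L1 and CENPE share chromosome 4 and the others lie on separate chromosomes. The median log2 fold change of neighbours was -0.01 for BUB1 (15 genes), -0.06 for CCNB1 (16 genes), -0.16 for KIF14 (7 genes), 0.06 for MAD2L1 (6 genes), 0.09 for CENPE (12 genes) and 0.005 for NDC80 (23 genes), over tested genes within 1 Mb, and MKI67 had no tested neighbour. For the less stable calls it was -0.12 for NEK2 (20 genes) and 0.07 for TPX2 (24 genes), close to their own -0.14 and 0.07, while for PLK1 it was -0.12 (18 genes), of the opposite sign to PLK1. It was -0.03 for BUB3 (11 genes), -0.01 for CENPA (45 genes) and 0.08 for DLGAP5 (22 genes). Exonic length was 3600 to 12807 bases among the higher genes and 1983 to 7277 bases among the lower ones, with GC contents of 35.3% to 57.1% and 38.3% to 47.8%. In the single library with strand counts, 3.92% to 17.6% of the reads of each tested member lay in the less common orientation, against 15.1% over all genes.

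Ratios of counts within a library do not depend on scaling, and 10 pairs of partners were compared. The pairs were chosen after the values were seen and are given without a test. No share over other pairs of genes was computed, and single genes alone were fully separated in CPM for 47.5% of all genes tested. The ratio of BUB1 to BUB3 was 1.35, 1.26 and 1.27 with over-expression, against 1.73, 1.78 and 1.76 for controls. The ratio of CCNB1 to CDK1 was 0.672, 0.722 and 0.671 with over-expression and 0.824, 0.892 and 0.928 in the controls. The ratio of CENPE to CENPF was 0.333, 0.362 and 0.335 with over-expression and 0.277, 0.258 and 0.256 in the controls. None of these 3 ratios overlaps between the groups. Nor did the ratio of CCNB1 to CCNB2, at 1.75 to 1.85 with over-expression and 2.01 to 2.17 in the controls, that of BUB1B to BUB3, at 0.618 to 0.698 with over-expression and 0.705 to 0.746 in the controls, or that of MAD2L1 to CDC20, at 0.544 to 0.588 with over-expression and 0.596 to 0.660 in the controls. The ratio of NDC80 to NUF2 was 1.76, 1.77 and 1.82 with over-expression and 1.46, 1.6 and 1.76 in the controls, which overlap narrowly. The ratio of CCNA2 to CDK1 was 0.615, 0.672 and 0.614 with over-expression and 0.647, 0.629 and 0.639 in the controls, which overlap. The ratio of AURKA to TPX2, 0.278, 0.251 and 0.268 with over-expression and 0.28, 0.267 and 0.274 in the controls, overlaps too, as does that of PTTG1 to ESPL1, at 0.719 to 0.773 with over-expression and 0.670 to 0.734 in the controls.

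**Figure D5:**
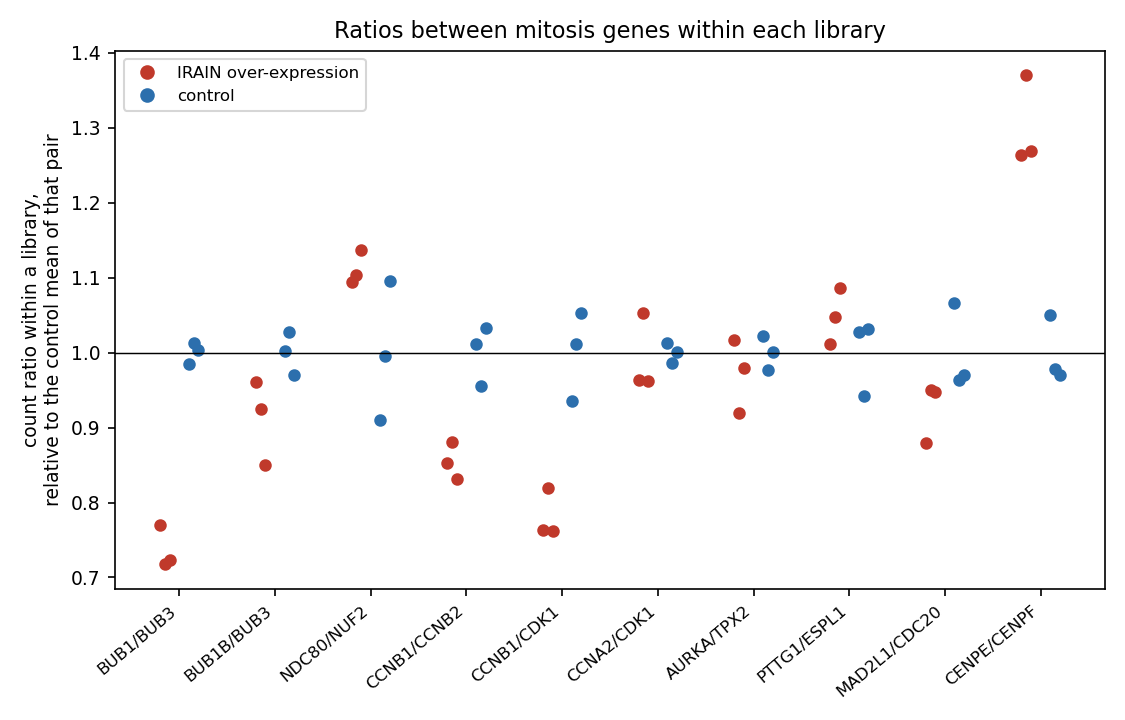
Ratio of the counts of 2 mitosis genes within each library, divided by the control mean of that pair, with IRAIN over-expression left of control in each pair. BUB1/BUB3 and CCNB1/CDK1 lie lower and CENPE/CENPF higher with over-expression, while CCNA2/CDK1 and AURKA/TPX2 overlap.

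Between replicates the mitosis genes shifted by small amounts as a group, though by more than other genes of at least their abundance. The median deviation of the 37 genes from their group mean was -0.0096, 0.003 and 0.0145 on the log2(CPM + 1) scale in over-expression replicates 1, 2 and 3. It was 0.0093, -0.0136 and -0.0032 in the controls numbered 1, 2 and 3. Over the 6373 genes at least as abundant as CDC25C it ran from -0.0016 in over-expression replicate 1 to 0.0019 in the control numbered 3. A median over 37 genes also varies more than one over so many, and the difference was not tested. In over-expression replicate 1, 12 of 37 genes lay above their group mean, in replicate 2, 20, and in replicate 3, 24. In the controls 22, 12 and 18 did. All 4 spindle microtubule proteins were below their group mean in over-expression replicate 1 and above it in replicates 2 and 3.

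The regulators of the mitotic programme were divided, with 6 of 19 higher and 4 lower, against 20.3% and 18.9% of all genes tested. The forkhead factor FOXM1 rose by 0.18 ± 0.059 on the log2 scale, and MYBL2 stood at 0.06 ± 0.033 (SE; edgeR adjusted p = 0.013 and 0.15). Both were named after their values were seen. The FOXM1 call was lost without the control numbered 3 (adjusted p = 0.16) and with DESeq2 (0.077), and MYBL2 was called without over-expression replicate 3 (0.042). The retinoblastoma gene RB1 rose by 0.32 ± 0.05 and the E2F partner TFDP2 by 0.32 ± 0.036 on the log2 scale (SE). The repressive E2F4 fell by 0.19 ± 0.045 and TFDP1, the main E2F partner, fell by 0.15 ± 0.039 on the log2 scale (SE). The median log2 fold change of the list was 0.00.

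The lists of partner proteins likewise held calls in both directions. Values are given from here on only for called genes that kept their call in all 14 alternatives, so their stability follows from this choice. Among called genes of smallest p, PLK3, CDC25B, SGO1, NUMA1, CDK5RAP2 and CLSPN (higher) did not keep their call in all. Neither did CDC25A, ODF2 and NEDD1 (lower). The counts of the lists stand beside 20.3% higher and 18.9% lower of all genes tested, and 27.9% and 30.9% of those at least as abundant as CDC25C. Of the other entry regulators 2 of 13 tested were higher and 3 lower, among them CCNF, the F-box cyclin, which fell by 0.25 ± 0.039. Of the subunits and partners of the anaphase-promoting complex 4 of 19 were higher and 4 lower. Its subunit ANAPC16 had 92.9 ± 1.72 CPM with over-expression and 57.2 ± 3.96 CPM in the controls (SD, n = 3 each), and UBE2S, which extends the ubiquitin chains, rose by 0.24 ± 0.038. The subunits ANAPC5 and ANAPC1 fell by 0.28 ± 0.03 and 0.25 ± 0.035. Of 30 other kinetochore genes 7 were higher and 6 lower: SKA1, which helps NDC80 hold microtubules, rose by 0.35 ± 0.037, whereas ZW10, of the complex that brings dynein to kinetochores, fell by 0.37 ± 0.056 and MIS18A, needed to load CENPA, fell by 0.37 ± 0.061 (log2 scale, SE). The neighbours of both within 1 Mb were lower too, with a median log2 fold change of -0.14 for ZW10 (8 genes) and -0.25 for MIS18A (18 genes).

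Of the cohesin and condensin genes 9 of 18 were higher and 3 lower, with a median log2 fold change of 0.09. Of all genes tested 39.3% were called in either direction, and of those at least as abundant as CDC25C 58.8%. The cohesin ring subunits RAD21 and STAG2 rose by 0.34 ± 0.03 and 0.26 ± 0.03, and the condensin II subunit NCAPD3 fell by 0.35 ± 0.031. Of 6 partners of the chromosomal passenger complex and shugoshins 1 was higher and 1 lower, which was BIRC5, or survivin, at -0.14 ± 0.039. Of 18 other motors and spindle proteins 4 were higher and 3 lower, with CKAP2L at 0.35 ± 0.064 and the microtubule polymerase CKAP5 at -0.19 ± 0.027. The neighbours of NCAPD3 and CKAP5, which like ZW10 lie on chromosome 11, had medians of -0.26 (8 genes) and -0.20 (43 genes), and the median of the 1025 tested genes of that chromosome was -0.13. Of 10 other cytokinesis genes 4 were higher and 1 lower, with the myosin MYH9 at 0.26 ± 0.028 and CEP55, which recruits the abscission machinery, at -0.29 ± 0.063. Of 14 centriole and centrosome genes 3 were higher and 3 lower, with CENPJ at 0.20 ± 0.042 (log2 fold changes, SE).

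Tubulins were lower in 6 of 10 cases and higher in 2, in a series where 18.9% of all genes tested were lower and 20.3% higher. TUBA1C had 140 ± 3.77 CPM with over-expression and 193 ± 6.32 CPM in the controls, and TUBB2A 22.7 ± 1.08 and 34.4 ± 2.54 CPM (SD, n = 3 each). TUBA1A, an alpha-tubulin typical of neurons, had 11.8 ± 0.982 CPM with over-expression and 4.66 ± 0.671 CPM in the controls, while TUBB, the most abundant of the list, was not called (log2 fold change -0.01 ± 0.025). Tubulin genes are close relatives, so reads may be lost or split between them. Of 20 G1/S genes 12 were lower and 2 higher, against 18.9% and 20.3% of all genes tested. Among genes at least as abundant as CDC25C, 30.9% were lower and 27.9% higher. The median log2 fold change of the G1/S list was -0.16, with UHRF1 at -0.62 ± 0.042 and the helicase subunit MCM4 at -0.28 ± 0.028 (SE). The differences between that list and all genes, or the mitosis genes, were not tested. Over the 10 lists of regulators and partner proteins together, 42 of 155 tested genes were higher and 33 lower, against 20.3% and 18.9% of all genes tested. Among genes at least as abundant as CDC25C the shares were 27.9% and 30.9%, though some genes of these lists are less abundant than that. These counts are therefore not read as particular to the lists.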

How the data were processed

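RNA of 6 K562 libraries was sequenced. STAR and the build hg38 (GRCh38) are named in the submitters' processing notes, and neither versions nor an annotation are. The authors deposited raw counts of reads, all whole numbers, for each gene in the 6 libraries, without regard to strand. They also deposited strand-split counts of 1 unnamed library, equal in its unsplit column to over-expression replicate 2 at all 58440 identifiers. Columns called vector stand for the control group; their numbers name no sample. Of the identifiers, 58320 matched GENCODE 29, the source of the GRCh38 gene coordinates.

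All genes were tested together with edgeR 4.0.16 in R 4.3.3 (filterByExpr, TMM, quasi-likelihood F-test, two-sided, Benjamini-Hochberg at 0.05). SE is the size of the log2 fold change over the square root of F. The step was run on counts simulated from its own fitted spread, with few genes changed. Such a run cannot check the fit where many genes differ, as here. The 14 alternatives were RLE, upper-quartile and plain total scaling, no filter, DESeq2 1.42.0, limma-voom (limma 3.58.1), a replicate block, a smooth GC and length correction, and leaving out each library. Each library was counted as 1 replicate. Within groups, pairs of libraries had a chi-square per degree of freedom of 1.36 to 2.31. This is more spread than counting alone gives, but it does not show that the libraries are separate cultures. The spread beyond counting, as the square root of the common dispersion fitted by edgeR, was 2.58%, so small differences could pass the test.

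The members and lists were chosen with earlier results of these data known. All 38 members are reported; from each other list up to 2 higher and 2 lower called genes of smallest p could be named. Without molecular identifiers, reads are not independent molecules.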

Additional observations from a re-analysis of the deposited data

How the results depend on the processing

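Of the 13 called mitosis genes, 7 kept their direction and call in all 14 alternatives, and of the 24 uncalled genes, 13 stayed uncalled in all of them. With scaling to plain library totals 11 mitosis genes were lower and their median log2 fold change was -0.0097, and after the GC and length correction 10 were higher. Leaving out 1 library gave 3 to 6 higher genes, 5 to 8 lower genes, a median log2 fold change of 0.0107 to 0.0277 and a number of all genes called of 6334 to 6749. The difference in their summed level, an alternative chosen after seeing the data, was 31.1 CPM with TMM and -113 CPM with plain library totals. The cause was not tested. With plain library totals the sign turned for CCNA2 (-0.0001), AURKA (-0.0034), PTTG1 (-0.0097), KIF2C (-0.0193), KIF4A (-0.0015) and HMMR (-0.0089), and after the GC and length correction for BUB1B (0.0087) and ANLN (0.003), none of which was called. Without single libraries the log2 fold change ran from -0.0297 to 0.0182 for BUB1B, -0.01 to 0.0445 for PTTG1, -0.0081 to 0.0309 for KIF2C, -0.0137 to 0.0929 for KIF4A, -0.0032 to 0.0611 for HMMR and -0.0452 to 0.0179 for ANLN. The replicate block left 5 higher and 7 lower mitosis genes, with all genes called at 7077, and TPX2 was the single member whose call differed (adjusted p = 0.051). The correlation of deviations between libraries with the same number was -0.0444, 0.00274 and -0.00917. Between libraries with different numbers it ran from -0.0401 to 0.0485. With 3 libraries per group, centred on their group mean, these values cannot show whether libraries with the same number share a culture or batch. The log2 fold changes carry SEs of 0.026 to 0.067.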
